A study of Mus musculus with 26 samples.

Results

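The proteases that mast cells pack into their granules were followed as one set of 10 genes in progenitors and cultured mast cells of wild-type and Prss57-/- mice. The members were 6 genes of the chymase and granzyme cluster (Cma1, Mcpt1, Mcpt2, Mcpt4, Mcpt8 and Gzmb), 3 tryptase genes (Tpsb2, Tpsab1 and Tpsg1) and the carboxypeptidase gene Cpa3. They were chosen by symbol, and all 10 were found among the 52636 genes listed for each library. Prss57 encodes neutrophil serine protease 4 (NSP4), and the Prss57-/- mice carried a germline deletion of its exon 2, made in C57BL/6N embryonic stem cells. Their controls were wild-type littermates matched for age; the methods of the study give ages for other experiments but name none for these libraries. Common myeloid progenitors (CMPs) and granulocyte-macrophage progenitors (GMPs) were sorted by flow cytometry from the bone marrow of female mice, with 4 libraries of each genotype for each population. Both lacked lineage markers and SCA-1 and carried CD117 and CD34, and they were told apart by low or high CD16/32. Bone marrow-derived mast cells (BMMCs) were grown from sorted GMPs of male mice in interleukin-3 and stem cell factor, with 5 libraries of each genotype. Total RNA-seq gave 32078404 to 53264762 counted reads in a progenitor library and 18627626 to 28647216 in a BMMC library. The study describes the GMP and BMMC libraries as biological replicates, and nothing in the labels says which mouse or culture a library came from.

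Mast cell proteases are made as precursors, the chymases among them trimmed by cathepsin C, and stored as active enzymes bound to serglycin proteoglycan and its heparin chains. Chymases cleave after aromatic residues, tryptases after basic ones, and carboxypeptidase A3 removes residues from the end of a chain. Tissue mast cells of mice are told apart by the set they store. Mcpt1 and Mcpt2 are chymases of mucosal mast cells, while Mcpt4, Cma1, Tpsb2 and Cpa3 are typical of connective tissue mast cells. Mcpt8 is best known from basophils, and Gzmb, granzyme B, from cytotoxic lymphocytes.

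On GRCm38, the 6 chymase and granzyme members lay within 321 kb of chromosome 14, in the order Cma1 (55941451 to 55944675), Mcpt1 (56017971 to 56020384), Mcpt2 (56042041 to 56044642), Mcpt4 (56059629 to 56062313), Mcpt8 (56082166 to 56085273) and Gzmb (56258838 to 56262260). The 3 tryptase members lay within 31.2 kb of chromosome 17, in the order Tpsab1 (25343245 to 25345562), Tpsb2 (25366305 to 25369098) and Tpsg1 (25369273 to 25374442). Cpa3 lay alone on chromosome 3 (20215620 to 20242181). Each chymase, granzyme and tryptase gene had 5 exons in its annotated main transcript, and Cpa3 had 11.

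Several members are close copies of each other, which bears on how a read of 50 bases is given to one of them. Mcpt1 and Mcpt4 had the same base at 86.5% of 741 aligned coding positions, Mcpt1 and Mcpt2 at 80.4%, and Mcpt2 and Mcpt4 at 78.8%. Cma1 was at 59.4 to 62.3% against these 3 genes. The first 120 coding bases of the 3 genes, from exons 1 and 2, are shown because they are that similar (GENCODE transcripts, GRCm38, chromosome 14; Mcpt1 at 56017999 to 56018053 and 56018561 to 56018625 on the plus strand, Mcpt2 at 56042154 to 56042208 and 56042701 to 56042765 on the plus strand, Mcpt4 at 56062220 to 56062274 and 56061660 to 56061724 on the minus strand). Capitals mark the 11 positions at which the 3 are not all alike.
Mcpt1: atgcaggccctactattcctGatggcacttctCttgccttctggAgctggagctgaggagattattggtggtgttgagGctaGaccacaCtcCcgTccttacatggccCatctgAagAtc
Mcpt2: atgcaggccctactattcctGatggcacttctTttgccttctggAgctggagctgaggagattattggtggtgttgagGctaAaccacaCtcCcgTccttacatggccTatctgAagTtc
Mcpt4: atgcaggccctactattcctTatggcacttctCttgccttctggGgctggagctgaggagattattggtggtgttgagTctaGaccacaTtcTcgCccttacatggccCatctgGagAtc
The tryptases Tpsb2 and Tpsab1 had the same base at 66.8% of 933 aligned coding positions, gaps included. Their most similar ungapped stretch of 120 coding bases, in exon 5 of both, is shown for the same reason (chromosome 17; Tpsb2 at 25367718 to 25367837 on the plus strand, Tpsab1 at 25343428 to 25343547 on the minus strand). Capitals mark its 11 differing bases.
Tpsb2: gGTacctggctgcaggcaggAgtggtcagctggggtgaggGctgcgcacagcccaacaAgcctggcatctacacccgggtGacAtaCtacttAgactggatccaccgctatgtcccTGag
Tpsab1: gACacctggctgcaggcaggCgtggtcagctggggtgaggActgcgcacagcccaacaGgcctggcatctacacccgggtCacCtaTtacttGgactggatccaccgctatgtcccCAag
The longest run shared by 2 of these transcripts was 49 bases for Mcpt1 and Mcpt2, 46 for Mcpt1 and Mcpt4, 33 for Mcpt2 and Mcpt4, and 39 for Tpsb2 and Tpsab1, each shorter than a read. No window of 50 bases in the main transcripts of Mcpt1, Mcpt2, Mcpt8, Gzmb, Tpsb2, Tpsab1 or Cpa3 recurred in a transcript of another gene. Such windows made up 5.46% of the Cma1 transcript (shared with Gm48934), 5.48% of Mcpt4 (with Cma2 and Mcpt9) and 9.59% of Tpsg1 (with Cacna1h, an overlapping gene on the other strand). Cacna1h had at most 3 reads in any BMMC library, Mcpt9 at most 2 and Cma2 at most 87.

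RefSeq promoter sequence on GRCm38.p6 was at hand for 7 of the 10 members. The 250 bases before the start of Cpa3, Cma1, Mcpt1 and Mcpt4 are shown because these genes moved together or apart in the BMMC libraries described below (Cpa3 at chr3:20242182-20242431, minus strand; Cma1 at chr14:55944676-55944925, minus strand; Mcpt1 at chr14:56017714-56017963, plus strand; Mcpt4 at chr14:56062311-56062560, minus strand). Capitals mark GATAA, the core letters of a GATA factor site, and TATAAA, the letters of a TATA box, searched on both strands. The matches of the pair do not overlap in these windows.
Cpa3: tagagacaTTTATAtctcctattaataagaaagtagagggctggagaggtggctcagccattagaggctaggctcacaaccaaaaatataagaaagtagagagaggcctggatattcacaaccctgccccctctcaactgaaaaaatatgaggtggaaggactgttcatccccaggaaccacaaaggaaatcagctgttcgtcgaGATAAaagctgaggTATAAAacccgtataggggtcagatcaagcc
Cma1: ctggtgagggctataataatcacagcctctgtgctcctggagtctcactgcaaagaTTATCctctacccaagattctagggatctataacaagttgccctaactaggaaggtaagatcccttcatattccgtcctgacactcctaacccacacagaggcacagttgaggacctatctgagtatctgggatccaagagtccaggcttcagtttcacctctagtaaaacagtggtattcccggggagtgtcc
Mcpt1: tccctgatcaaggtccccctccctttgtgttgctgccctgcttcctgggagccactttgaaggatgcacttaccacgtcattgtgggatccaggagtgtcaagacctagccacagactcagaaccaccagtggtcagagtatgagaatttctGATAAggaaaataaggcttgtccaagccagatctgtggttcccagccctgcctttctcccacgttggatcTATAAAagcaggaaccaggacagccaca
Mcpt4: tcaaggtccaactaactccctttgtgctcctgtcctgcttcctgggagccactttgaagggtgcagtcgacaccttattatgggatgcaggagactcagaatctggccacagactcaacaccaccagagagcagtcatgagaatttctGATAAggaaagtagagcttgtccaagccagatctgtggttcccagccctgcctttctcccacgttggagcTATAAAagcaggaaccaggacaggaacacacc
GATAA was found in the window of 5 of the 7 members (these 4 and 1 of the 2 Tpsg1 starts in the table, the other having none), and in 22.6% of all 32851 promoters of the same length. TATAAA was found in 3 of the 7 (Cpa3, Mcpt1 and Mcpt4), and in 12.4% of all promoters. The windows of Gzmb and Mcpt8, not shown, held neither, though these genes also stood apart in the BMMC libraries described below. The Mcpt1 and Mcpt4 windows had the same base at 81.5% of 254 aligned positions, whereas Cma1 was at 43.0% against Mcpt1 and 44.1% against Mcpt4. A match is a description of the letters and does not show that a factor binds.

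The libraries fit their labels for the deleted gene. Prss57 was at 145 ± 35.7 normalized RPKM (mean ± SD, n = 4) in wild-type GMPs and at 0.132 ± 0.0626 (n = 4) in Prss57-/- GMPs. It was at 23.2 ± 7.47 against 0.00798 ± 0.00340 in CMPs (n = 4 each). In BMMCs it was low in both, with 2 to 27 reads per wild-type library and none in the 5 Prss57-/- libraries. Normalized RPKM is the deposited level, reads per kilobase and per unit of depth, scaled by a size factor, so that genes can be compared per length. The 10 mast cell markers, Kit, Fcer1a and Ms4a2 among them, summed to 6351 ± 697 normalized RPKM in wild-type BMMCs (n = 5) and to 650 ± 70.0 in wild-type GMPs (n = 4), with a higher mean in BMMCs for each of them but Hdc (151 against 158). The wild-type BMMC libraries also held macrophage markers, at a sum of 13776 ± 2156 led by Lyz2 and with all 10 detected in each library.

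In wild-type BMMCs the members spanned from 40.3 to 17611 normalized RPKM, and Tpsb2 and Cpa3 led them. Tpsb2, the main tryptase of connective tissue mast cells, was at 13369, 21978, 15771, 22650 and 14288 normalized RPKM in wild-type libraries 1 to 5. Cpa3 was at 10728, 11892, 11428, 16854 and 14008, and its range overlapped that of Tpsb2, although Tpsb2 was above Cpa3 in 5 of 5 libraries. Cma1, the alpha-chymase of the mouse, followed at 2816 ± 672 (n = 5) and did not overlap its neighbours. Tpsab1, a second soluble tryptase, at 755 ± 150, and Tpsg1, a tryptase anchored in the membrane, at 621 ± 69.2, overlapped each other, with Tpsab1 above Tpsg1 in 4 of 5 libraries. Mcpt2 followed at 308 ± 59.1, above Mcpt8 in 5 of 5 libraries without overlap. Mcpt8 at 187 ± 37.5 and Mcpt4 at 115 ± 20.3 overlapped in range, and so did Mcpt4 and Gzmb, at 109 ± 21.7. Mcpt1 was the lowest of the 10 at 40.3 ± 7.21. Together the 10 genes took 4.08 ± 0.587% (n = 5) of all counted reads in wild-type BMMCs, against 0.116 ± 0.0153% in wild-type GMPs and 0.0175 ± 0.00256% in wild-type CMPs (n = 4 each).

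**Figure D1:**
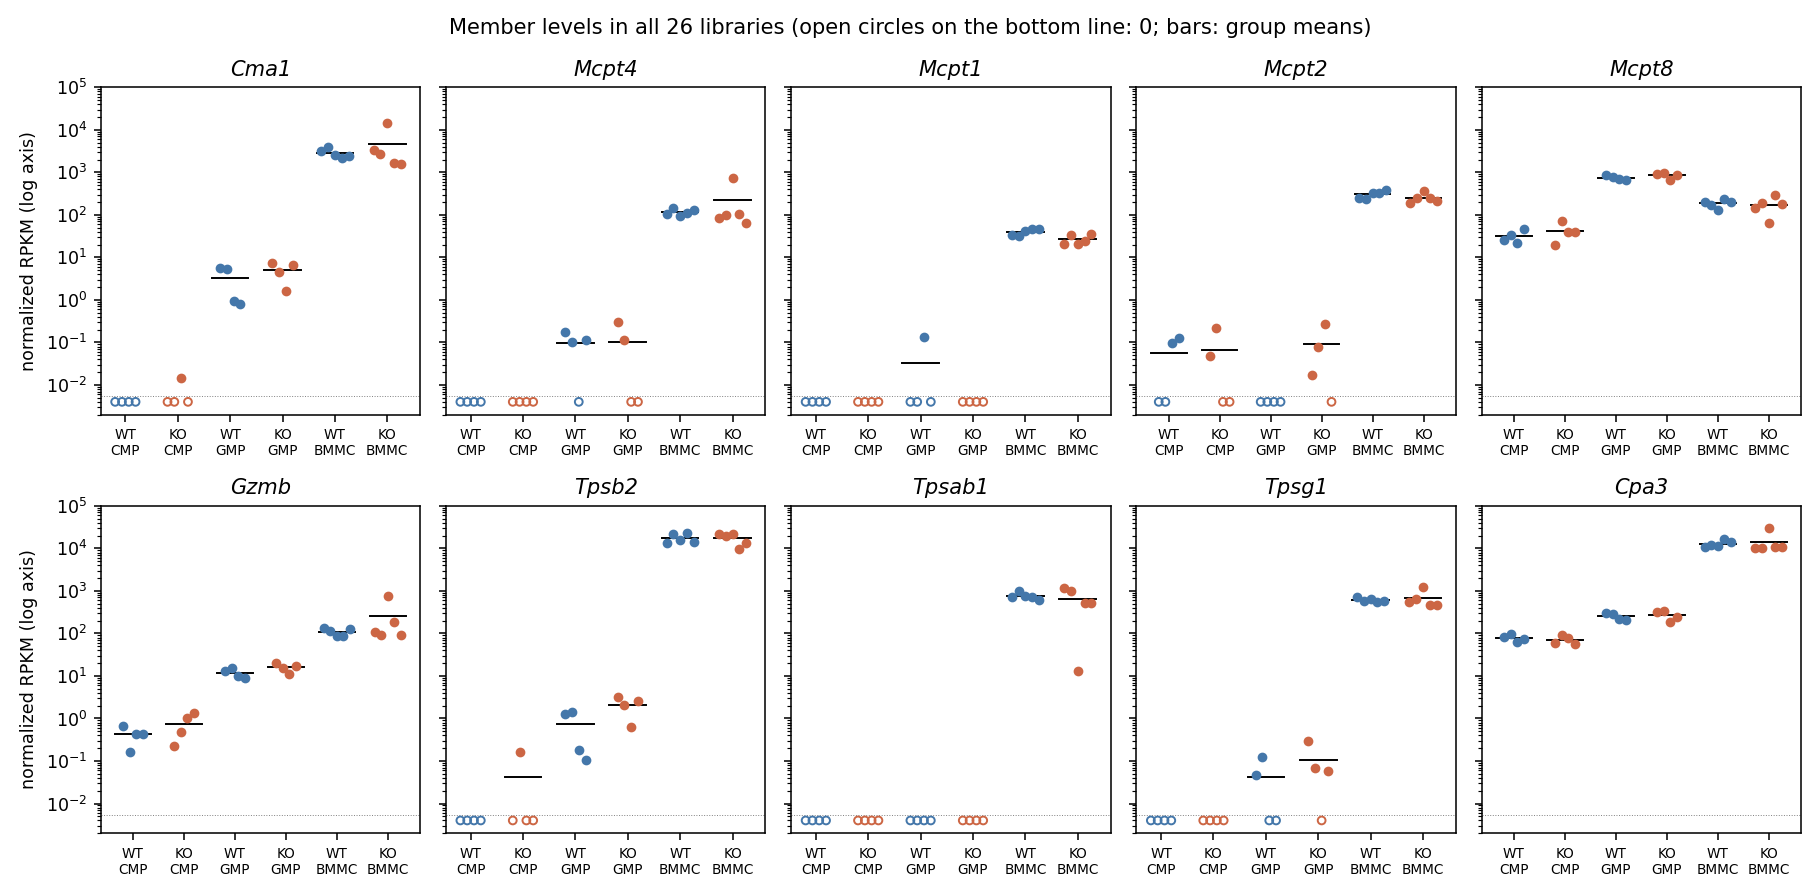
Normalized RPKM on a log axis for each member in the 4 wild-type (WT, blue) and 4 Prss57-/- (KO, orange) CMP libraries, the same numbers of GMP libraries and 5 of each BMMC genotype; points are libraries, bars are group means and open circles on the bottom line are libraries listed at 0. Mcpt8 has its highest points in GMPs, while Tpsab1 is at 0 in all 16 progenitor libraries.

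The progenitors held a short list of these transcripts, and Mcpt8 and Cpa3 led it. Mcpt8 was at 852, 767, 689 and 662 normalized RPKM in wild-type GMP libraries 1 to 4, and Cpa3 was at 306, 287, 216 and 209. Mcpt8 was above Cpa3 in all 4 wild-type GMP libraries without overlap, whereas in wild-type CMPs the order was turned, with Cpa3 at 79.0 ± 14.8 and Mcpt8 at 31.4 ± 10.6 (n = 4 each). Gzmb was the third in both, at 11.9 ± 3.05 in wild-type GMPs and 0.425 ± 0.208 in wild-type CMPs. Cma1 and Tpsb2 were at the foot of the measurable range in wild-type GMPs, with 292, 352, 52 and 45 reads and 66, 93, 10 and 6 reads. No wild-type CMP library had a read of either, and the 4 Prss57-/- CMP libraries together held 1 read of Cma1 and 5 of Tpsb2. Mcpt1, Mcpt2, Mcpt4 and Tpsg1 had at most 24 reads in any progenitor library, and Tpsab1 had none.

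The first comparison asked how the members change from CMPs to GMPs, in libraries of the same run and sex. Genes were called where the adjusted p was under 0.01 and the level differed at least 2-fold (edgeR's quasi-likelihood test, Benjamini-Hochberg over all genes tested). In wild-type cells 4 members passed the filter on low counts and all 4 were called higher in GMPs, beside 12.8% of the 14967 genes tested that were called in either direction. In Prss57-/- cells, which share no library with the wild-type comparison, 5 members were tested and all 5 were called higher, beside 8.42% of 14959 genes. A member that is seen only in GMPs passes the filter only because of that group, so these counts cover the members that passed and not the 10, and the calls of Cma1 in both genotypes and of Tpsb2 in Prss57-/- cells were bound to come out higher. Mcpt8 rose by a log2 fold change of 4.58 (SE 0.24, adjusted p = 9.61e-07) in wild-type and 4.37 (SE 0.37, adjusted p = 0.000118) in Prss57-/- GMPs. Gzmb rose by 4.82 (SE 0.36, adjusted p = 6.06e-06) and 4.44 (SE 0.51, adjusted p = 0.000444). Cpa3, already present in CMPs, rose less, by 1.71 (SE 0.17, adjusted p = 3.69e-05) and 1.99 (SE 0.23, adjusted p = 0.000498). Each of these 3 genes was higher in all 4 GMP libraries than in any CMP library of its genotype. The share of all genes so separated was not taken. Bulk libraries cannot tell more cells of a type from more RNA per cell.

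Cma1 was at 3.95 CPM (counts scaled to the total of a library) in wild-type GMPs and at 0 in all 4 wild-type CMP libraries, so that it was at least 52.5-fold higher against a floor of 3 counts per library. In Prss57-/- cells its ratio was 1330, with a counting interval of 239 to 52514 that rests on 1 read in CMPs. This is a ratio of the counts and not a bound against the floor, so its size cannot be set against the wild-type value. Tpsb2 was tested in the Prss57-/- comparison alone, where 204, 118, 34 and 107 reads in GMPs stood against 0, 5, 0 and 0 in CMPs. Its ratio was 67.2 (counting interval 28.8 to 207). The calls of these genes say no more than these levels, and that of Tpsb2 was lost in 5 of the fits that left out one library, at adjusted p of 0.0110 to 0.0151 in edgeR. In wild-type GMPs Tpsb2 was at least 12.3-fold above the same floor in CMPs, without a test. The basophil gene Prss34 moved with Mcpt8, from 6.54 ± 4.60 normalized RPKM in wild-type CMPs to 1207 ± 97.3 in wild-type GMPs (n = 4 each). The summed basophil markers, Prss34 and Mcpt8 among them, went from 38.6 ± 14.5 to 1954 ± 182, with all 5 detected in each wild-type GMP library, and Itga2 alone was lower there in mean (0.268 against 0.403). The mast cell markers went from 248 ± 13.4 to 650 ± 70.0, with Mrgprb2 under 3 reads in every wild-type GMP library. That sum was carried by Cd63, Fcer1g, Hdc and Fcer1a, while Rab27b (5.36 to 0.296), Il1rl1 (7.29 to 2.91), Slc18a2 (9.86 to 5.36) and Kit (57.4 to 52.4) had lower means in GMPs. Other lists moved as well, the neutrophil sum from 19.4 ± 9.56 to 2358 ± 733, the eosinophil sum from 25.0 ± 14.97 to 2077 ± 409, the NK and T cell list almost wholly through Nkg7 (166 to 627, the other 6 under 1 in both), and the erythroid and megakaryocytic sum from 1297 ± 297 down to 72.2 ± 21.4. The macrophage sum went from 250 ± 41.5 to 345 ± 44.1, while C1qa, C1qb, C1qc and Marco had lower means in GMPs. The dendritic cell sum went from 116 ± 7.82 to 58.7 ± 14.7, with a higher mean in GMPs for Xcr1 alone. The part of these markers in the rise of the members was not tested.

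The 8 GMP libraries were not alike in the members, least of all in the low ones. Cma1 was at 5.77, 5.41, 0.956 and 0.781 normalized RPKM in wild-type libraries 1 to 4 and at 7.50, 4.58, 1.60 and 6.49 in Prss57-/- libraries 1 to 4. Tpsb2 was at 1.30, 1.42, 0.183 and 0.104, and at 3.13, 2.07, 0.635 and 2.57. Both genes were low in wild-type libraries 3 and 4 and in Prss57-/- library 3. Gzmb had its lowest values in the same 3 libraries within their genotypes, but over a range of 8.92 to 20.0 only. Mcpt8 (689, 662 and 655) and Cpa3 (216, 209 and 189) were also lowest in these 3 libraries. So were the mast cell, basophil (Mcpt8 included), and erythroid and megakaryocytic marker sums. The macrophage, dendritic cell, neutrophil, eosinophil, and NK and T cell sums were not. The part of these markers in the pattern was not tested. After each group mean was taken off, the log2 values of Cma1 and Tpsb2 had a Pearson r of 0.99 over these 8 libraries. It was 0.97 for Cma1 and Gzmb, 0.85 for Cma1 and Mcpt8, and 0.84 for Cma1 and Cpa3. These values are a description of libraries that share a run.

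**Figure D2:**
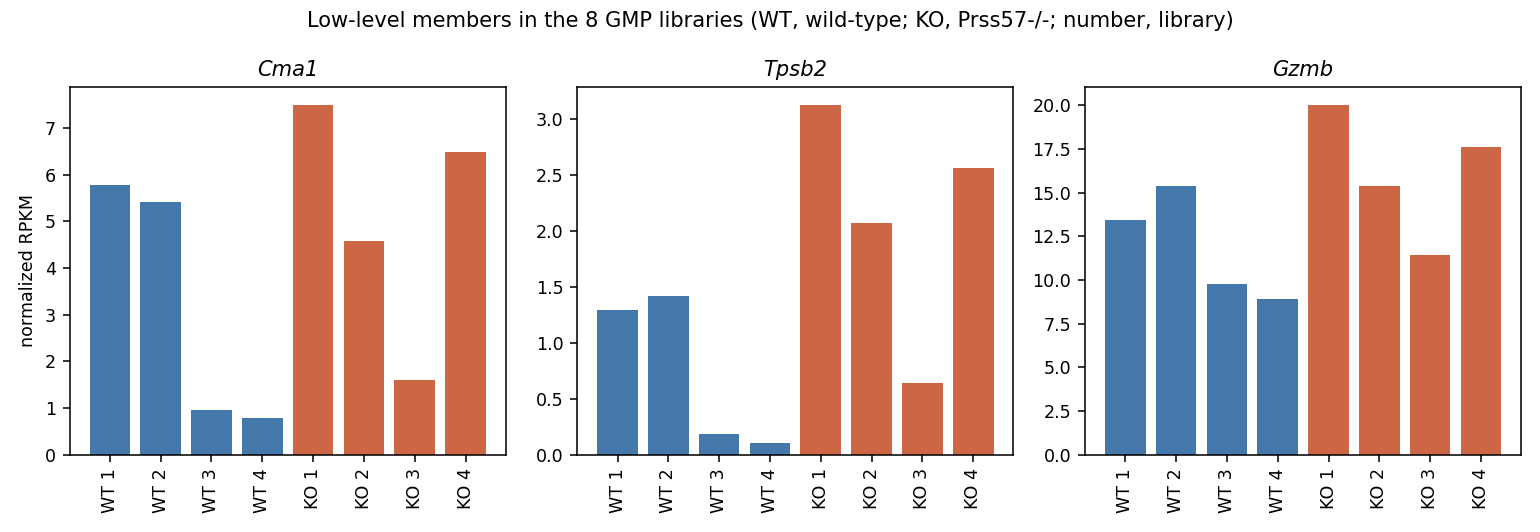
Normalized RPKM of Cma1, Tpsb2 and Gzmb in each GMP library, with 4 wild-type (WT, blue) and 4 Prss57-/- (KO, orange) bars in each panel and each axis starting at 0. Wild-type libraries 3 and 4 and Prss57-/- library 3 are the low ones for Cma1 and Tpsb2.

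The second comparison set wild-type BMMCs against the wild-type GMPs from which such cells are grown. BMMCs came from male mice and another sequencing run, so in every value of this comparison the cell type cannot be told apart from sex and run. All 10 members were tested and called, 9 higher in BMMCs and 1 lower, beside 51.7% of the 14754 genes tested. Of the 9, Mcpt1, Mcpt2, Mcpt4, Tpsb2, Tpsab1 and Tpsg1 passed the filter only through the BMMCs, where they are high, so their calls were bound to come out higher and the count is read no further. Markers of other cells moved in the same comparison, the macrophage sum from 345 ± 44.1 to 13776 ± 2156 and the erythroid and megakaryocytic sum from 72.2 ± 21.4 to 946 ± 108, the latter through Pf4 and Itga2b. The dendritic cell sum went from 58.7 ± 14.7 to 1111 ± 274 with Cd74 and the MHC class II genes, while Flt3 (5.73 to 0.136), Xcr1 and Siglech had lower means in BMMCs. The basophil sum went from 1954 ± 182 to 615 ± 149 through Prss34 and Mcpt8 itself, while Cd200r3 (2.99 to 176), Il4 (0.911 to 14.6) and Itga2 (0.268 to 2.69) had higher means in BMMCs. The neutrophil sum went from 2358 ± 733 to 181 ± 57.4, with higher means in BMMCs for Mmp8 (2.06 to 115) and Retnlg (2.60 to 3.40). The eosinophil sum went from 2077 ± 409 to 13.5 ± 4.34, with Ear2 at 8.62 and 9.19, and Nkg7 went from 627 to 1.38. The part of these markers in the change of the members, Mcpt8 included, was not tested. Mcpt8 was the member that went down: it fell by 2.08 on the log2 scale (SE 0.15, adjusted p = 8.56e-08). Its wild-type BMMC libraries, at 132 to 231 normalized RPKM, all lay below the GMP libraries, at 662 to 852. Tpsb2 was at 0.925 CPM in GMPs and 17878 CPM in BMMCs. Cma1 rose by 723-fold from 3.95 to 2856 (adjusted p = 8.08e-08), and Cpa3 by 41.9-fold from 422 to 17693 (adjusted p = 3.59e-10). Gzmb rose least, by 7.60-fold (adjusted p = 4.02e-08).

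The remaining 5 members were at or near 0 in GMPs. Tpsab1 and Mcpt2 had no read in any wild-type GMP library and were at least 12593-fold and 4308-fold higher in BMMCs against 3 counts per library. Mcpt4, with 20 reads over the 4 GMP libraries, had a ratio of 992 (counting interval 643 to 1625). Mcpt1 had 7 reads, all in wild-type library 3, and a ratio of 981 (476 to 2441). Tpsg1 had 13 reads and a ratio of 12062 (7053 to 22653). All 9 members that rose were higher in each of the 5 BMMC libraries than in any of the 4 GMP libraries. The share of all genes so separated was not taken. Some of the 9 passed the filter only through the BMMCs, so this count is read no further.

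The third comparison asked whether loss of Prss57 changed the members in BMMCs, and 1 library had to be set apart before its values were read. Prss57-/- BMMC library 3 was above all 9 other BMMC libraries, and at least 2-fold above their median, for 7.58% of 11800 genes. It was below all 9, and at least 2-fold below their median, for 13.8%. In each of the other 9 libraries, ranked against 8 libraries without library 3, these shares were at most 1.05% and 0.881%. Of the members, 5 were above all 9 others in library 3 by any margin, 3 were below and 2 were within. Mcpt1, 1.68-fold below the median of the others, does not meet the 2-fold rule. The share of all genes by any margin was not taken, so the member counts cannot be set beside the shares above. This holds too for the counts of listed genes in library 3 given below. Cma1 was at 14490 normalized RPKM there and at 1565 to 3836 elsewhere. Mcpt4 was at 738 against 64.8 to 142, Gzmb at 773 against 86.3 to 189, Cpa3 at 29822 against 10304 to 16854 and Tpsg1 at 1260 against 465 to 735.

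Tpsab1 went the other way by the widest margin, with 264 reads in library 3 and 14252 to 28313 reads in the other 9. Its level was 13.3 normalized RPKM against a median of 715 elsewhere, 53.6-fold lower. The neighbouring tryptase Tpsb2, whose 3′ coding bases are shown above, was within the range of the others in normalized RPKM, at 21821 against 9474 to 22650. Mcpt8 was below all others at 64.0 against 132 to 287. Mcpt1 was just below them at 20.5 against 20.7 to 47.2, and Mcpt2 was within their range at 361. Mcpt1 and Mcpt4 thus stood on opposite sides of the other libraries, Mcpt4 7.20-fold above their median and Mcpt1 1.68-fold below. They were the closest pair in coding sequence. They were also the closest in promoter sequence among the chromosome 14 members for which one was at hand, Mcpt2 not among them. Along chromosome 14 the members above and below the others were mixed. Whether the cells of library 3 differed in origin or culture from those of the other libraries was not tested, and its values, and the genotype comparison that holds it, are limited by that.

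**Figure D3:**
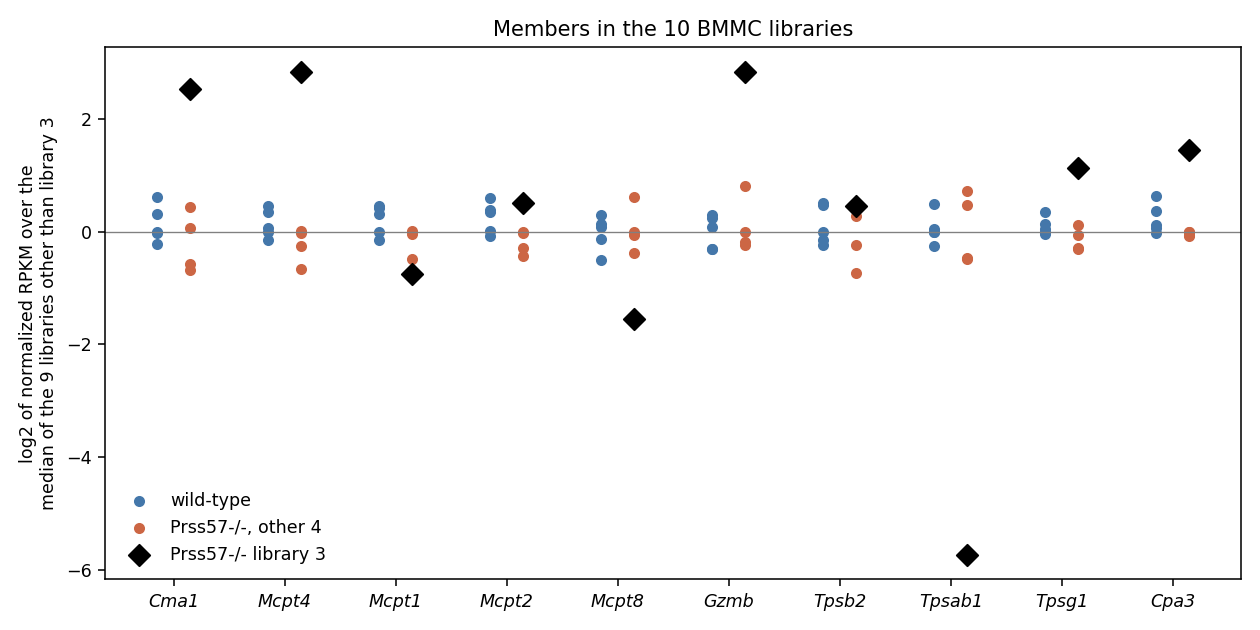
Log2 of each member's normalized RPKM over the median of the 9 BMMC libraries other than Prss57-/- library 3; blue points are the 5 wild-type libraries, orange points the other 4 Prss57-/- libraries and black diamonds library 3. Cma1, Mcpt4, Gzmb, Tpsg1 and Cpa3 lie above, and Mcpt8 and Tpsab1 lie below, the cloud of the others.

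Markers of other cells also set library 3 apart. The 10 macrophage markers summed to 1127 normalized RPKM there and to 10689 to 20623 in the other 9 BMMC libraries. Most of that sum was Lyz2, at 978 against 9432 to 18667, while Csf1r was at 12.3 against 106 to 176 and C1qa at 17.4 against 149 to 319. The 9 dendritic cell markers summed to 70.9 against 830 to 1798, with Cd74 as the most abundant. Flt3, Zbtb46 and Ccr7 were under 3 reads in library 3 only, while Xcr1 and Siglech were under 3 reads in every BMMC library. The 10 mast cell markers summed to 11879 against 4740 to 7179, led by Fcer1a at 6786 against 2189 to 3668. Of these 10, 7 were above all 9 other libraries and 2 were within their range, while Hdc, the enzyme that makes histamine, was below them at 88.6 against 125 to 175. The 5 basophil markers, Mcpt8 included, summed to 385 against 471 to 851, but they did not move as one. Prss34 (43.1 against 153 to 381), Itga2 and Mcpt8 were below all 9, while Cd200r3 (231 against 137 to 224) and Il4 (45.4 against 10.9 to 18.6) were above all 9. The 7 neutrophil markers summed to 27.6 against 115 to 266, with Mmp8 at 11.1 against 90.6 to 178, while Ngp, Retnlg and Camp were within range. Of the erythroid and megakaryocytic list, Pf4 was below all 9 (72.3 against 497 to 826) and Itga2b above all 9 (918 against 222 to 414). The members were also divided by the mast cell sum, a scale chosen after the values were seen. On it Cma1 was 2.83-fold, Mcpt4 3.48-fold and Gzmb 4.00-fold above the median of the others, each above all 9. On the same scale Cpa3 was 1.28-fold above, Tpsg1 was within their range, and Tpsab1 was 111-fold below. Mcpt8 was 6.20-fold and Mcpt1 3.46-fold below, and Tpsb2, within the range of the others in normalized RPKM, was below all 9 at 184% of the mast cell sum against 200 to 344%. This scale is a description and no test, and the part of these markers in any of the differences of library 3 was not tested.

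**Figure D4:**
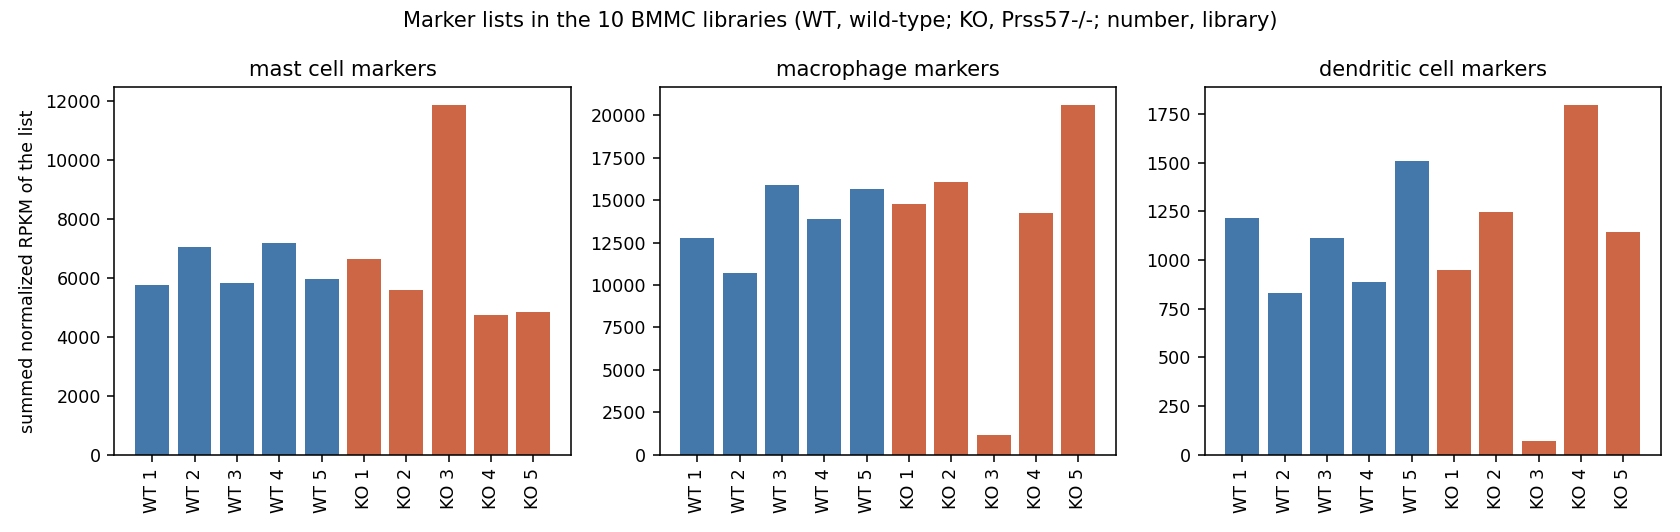
Summed normalized RPKM of the mast cell, macrophage and dendritic cell marker lists in each BMMC library, wild-type (WT, blue) and Prss57-/- (KO, orange), 5 each, on axes that start at 0. Library 3 of the Prss57-/- group has the highest mast cell sum, 11879, and the lowest macrophage and dendritic cell sums, 1127 and 70.9.

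Over all 10 BMMC libraries, none of the 10 members was called between genotypes, and the share of all 13938 genes called was 0%. At an unadjusted p under 0.05 there were 332 genes, Mcpt1 among them, and limma voom and DESeq2 called 0 genes too. Without library 3 the share called was again 0% of 14162 genes, with 1031 at an unadjusted p under 0.05, and again no member was called. The members under 0.05 were then Mcpt2 (unadjusted p = 0.00979), Mcpt1 (0.0141) and Mcpt4 (0.0424), each lower in Prss57-/- libraries. In the same libraries the mast cell markers summed to 5455 ± 878 (Prss57-/- without library 3, n = 4) against 6351 ± 697 (wild-type, n = 5) and the macrophage markers to 16420 ± 2908 against 13776 ± 2156, and their part in these values was not tested. Leaving it out turned the sign of 6 members. Cma1 went from a log2 fold change of 0.75 (SE 0.60) to -0.28 (SE 0.25), Mcpt4 from 0.93 (SE 0.65) to -0.37 (SE 0.16) and Cpa3 from 0.15 (SE 0.34) to -0.29 (SE 0.15). Tpsg1 went from 0.12 to -0.23, Tpsab1 from -0.24 to 0.08 and Mcpt8 from -0.13 to 0.08. Gzmb went from 1.19 (SE 0.60) to 0.13 (SE 0.23).

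Mcpt1 and Mcpt2, the chymases of mucosal mast cells, kept their sign with and without that library. Mcpt1 was at 34.3, 31.1, 42.7, 46.1 and 47.2 normalized RPKM in wild-type libraries 1 to 5 and at 20.7, 33.3, 20.5, 24.7 and 34.6 in Prss57-/- libraries 1 to 5. The groups overlapped, with 3 Prss57-/- libraries below every wild-type one. Its log2 fold change was -0.60 (SE 0.18, unadjusted p = 0.0088, adjusted p = 1.00 in edgeR over all genes) and -0.52 (SE 0.17, adjusted p = 0.597) without library 3. The exact two-sided permutation test of its mean normalized RPKM gave p = 0.0397, unadjusted and 1 of 19 such tests, and it gave 0.0714 in 6 of the 10 repeats that left out one library. Mcpt2 was at 308 ± 59.1 in wild-type and 253 ± 66.7 in Prss57-/- libraries (n = 5 each), a log2 fold change of -0.29 (SE 0.19), and of -0.45 (SE 0.14, adjusted p = 0.587) without library 3. Tpsb2 was at 22372, 19191, 21821, 9474 and 13351 in Prss57-/- libraries 1 to 5, which overlapped the wild-type values above, with a log2 fold change of -0.03 (SE 0.28).

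**Figure D5:**
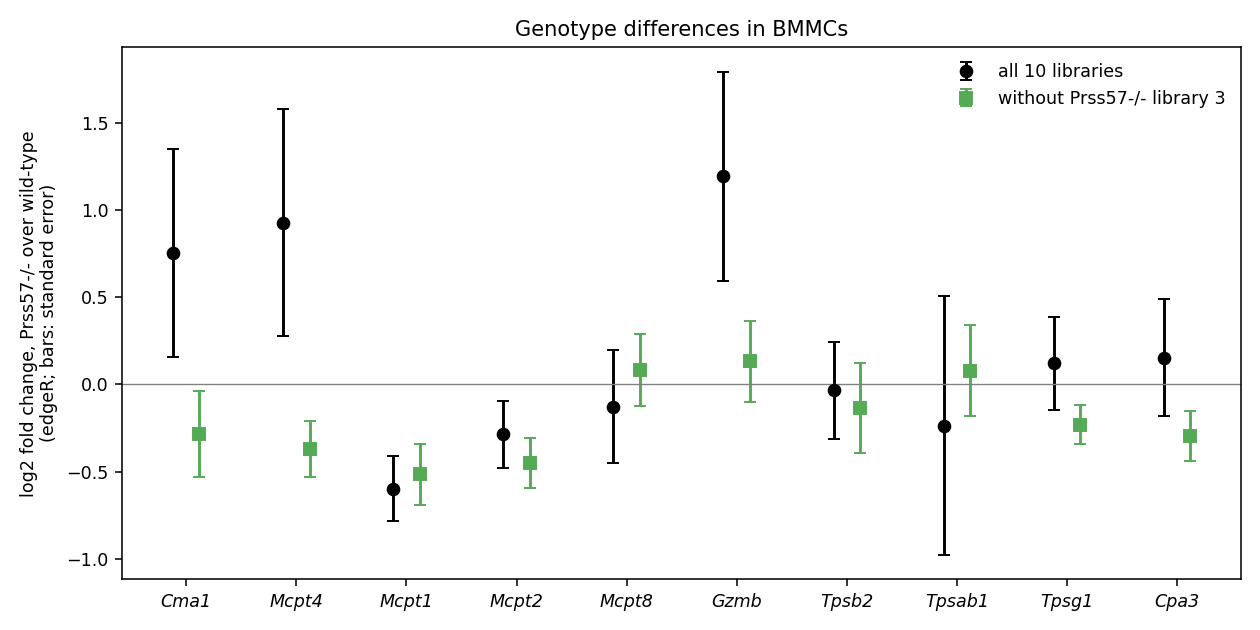
Log2 fold change of each member between 5 Prss57-/- and 5 wild-type BMMC libraries (black circles) and without Prss57-/- library 3 (green squares), from edgeR with bars of 1 standard error. The estimates for Cma1, Mcpt4 and Gzmb move down when library 3 is left out, from 0.75, 0.93 and 1.19 to -0.28, -0.37 and 0.13.

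In the progenitors, the same question had few members to test. In GMPs 5 members were tested and none was called, beside 0.00681% of 14689 genes, which is Prss57 itself. Cpa3 had a log2 fold change of 0.10 (SE 0.19), Mcpt8 of 0.19 (SE 0.13), Gzmb of 0.44 (SE 0.21), Cma1 of 0.64 (SE 0.66) and Tpsb2 of 1.48 (SE 0.74), all with an adjusted p of 1.00. The Prss57-/- and wild-type libraries overlapped for each of the 5. In CMPs 3 members were tested and none was called, beside 0.0067% of 14916 genes, again Prss57. Mcpt8 had a log2 fold change of 0.41 (SE 0.36), Gzmb of 0.81 (SE 0.60) and Cpa3 of -0.18 (SE 0.20). The genotype effects in GMPs and CMPs were also compared directly, and no member of 5 tested and 0% of 15900 genes passed an adjusted p under 0.01, with 169 at an unadjusted p under 0.05. With these standard errors, changes of the low members Cma1 and Tpsb2 in GMPs were measured only coarsely.

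The neighbours of the members on their chromosomes were mostly silent. Of 11 other genes listed for the chymase and granzyme locus, 9 were in the files, and Ctsg, cathepsin G of neutrophil granules, was the abundant one at 4615 ± 992 normalized RPKM in wild-type GMPs and 815 ± 213 in wild-type BMMCs. It was called higher in wild-type GMPs than CMPs (log2 fold change 2.00, SE 0.22) and lower in BMMCs than GMPs (-2.60, SE 0.21), as Mcpt8 was. In Prss57-/- cells its CMP to GMP change of 1.44 (SE 0.31, adjusted p = 0.0102) was just outside the call. Gzmc had 0 to 6 reads in wild-type GMP and 9 to 19 in wild-type BMMC libraries, and passed the filter only through the BMMCs. Cma2, the second by mean level, was at 0.574 ± 0.238 in wild-type BMMCs and had 87 reads in Prss57-/- library 3 against 7 to 16 in the other BMMC libraries. Of 10 other genes listed for the tryptase locus, 9 were in the files. Prss34, a tryptase of basophils, was called higher in GMPs than CMPs in both genotypes (7.55, SE 0.50, in wild-type and 7.92, SE 0.41, in Prss57-/- cells) and lower in wild-type BMMCs than GMPs (-2.46, SE 0.22). Prss28 had no read in any CMP library and averaged 0.231 ± 0.1297 normalized RPKM in wild-type and 0.350 ± 0.0369 in Prss57-/- GMPs (n = 4 each). It was tested in the Prss57-/- comparison and not in the wild-type one, and it passed the filter there only through the GMPs, so its call says no more than these levels. Between genotypes in BMMCs, 3 genes of the first list and 2 of the second were tested, and none was called.

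Of the 13 genes listed for packing and activating the proteases, 8 were called higher and none lower in wild-type BMMCs against GMPs, with a median log2 fold change of 1.58 against -0.00 over all genes tested, of which 51.7% were called. The macrophage markers rose in the same comparison, as given above, and their part in the change of these genes was not tested. The largest were the cathepsins Ctsl (5.94, SE 0.23), Ctss (5.04, SE 0.16) and Ctsb (3.05, SE 0.13) and the heparan sulfate sulfotransferase Hs6st1 (2.74, SE 0.14). Of those named after their values were seen, Ctsc, the gene of cathepsin C, rose by 2.49 (SE 0.12) and Ndst2, which makes heparin in mast cells, by 1.58 (SE 0.11). Srgn, the serglycin core protein, was at 1139 ± 99.1 normalized RPKM in wild-type BMMCs and 987 ± 274 in wild-type GMPs. It was the first of the list by its mean over all groups, whereas in wild-type BMMCs Ctss had a higher mean, at 1180 ± 170. In the CMP to GMP step 1 of 13 was called, beside 12.8% of all genes in wild-type and 8.42% in Prss57-/- cells. It was Ctse, which was lower in GMPs in wild-type (-2.14, SE 0.26) and Prss57-/- cells (-1.91, SE 0.22). None was called between genotypes in any cell type. In library 3, 5 of the 13 were above all 9 other BMMC libraries by any margin, 6 were below them and 2 were within. The share of all genes on this rule was not taken, so the counts are read no further. Srgn was there at 2951 against 864 to 1311 and Ndst2 at 151 against 32.3 to 40.9, both above the other 9 as Cma1 and Cpa3 were. Ctss was at 116 against 967 to 1897 and Ctsl at 37.4 against 221 to 461.

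Among 12 transcription factors of mast cell and basophil genes, 5 were called higher and 2 lower in wild-type BMMCs than in GMPs, beside 51.7% of all genes called. Mitf (4.67, SE 0.14), Gata2 (3.37, SE 0.18), Lmo2 (-2.72, SE 0.09) and Tal1 (2.66, SE 0.11) had the largest log2 fold changes. Gata2 went from 36.8 ± 8.79 to 405 ± 52.2 normalized RPKM and Lmo2 from 138 ± 5.64 to 22.4 ± 1.96. From CMPs to GMPs, Gfi1 (2.81, SE 0.19), Cebpa (1.77, SE 0.19), Mitf (1.49, SE 0.21) and Spi1 (1.32, SE 0.13) were called higher and Gata1 (-3.06, SE 0.13) and Tal1 (-2.02, SE 0.12) lower in wild-type cells, 6 of 12 beside 12.8% of all genes. In Prss57-/- cells 3 were called higher and 2 lower in the same step, beside 8.42% of all genes. None was called between genotypes. In library 3, 8 of the 12 were above all 9 other BMMC libraries by any margin, 3 were below them and 1 was within. The 8 ran from 1.20-fold (Mitf) to 3.76-fold (Gata1) above the median of the others. The share of all genes on this rule was not taken, so the counts are read no further. In library 3 Gata1 was at 165 against 31.1 to 51.7, Gata2 at 777 against 291 to 479 and Cebpa at 2.44 against 39.0 to 71.0.

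Likeness was measured as Pearson's r across libraries on log2(normalized RPKM + 1) after each group mean was taken off, among genes with a mean of at least 1. Over the 16 progenitor libraries the 5 genes outside the set most like Cpa3 were Paip2b (r = 0.95), Nr1d2 (0.94), Mettl27 (0.92), Haus3 (0.91) and Rab8b (0.90). Those most like Mcpt8 were Anxa1 (0.94), Rars2, Rbx1, Csrp3 and Nqo2 (0.92 to 0.93). Over the 10 BMMC libraries Agps, Pcyt1a, Yaf2, Zfp260 and Cacnb4 were most like Cpa3 (0.99) and Col15a1, Ppp1r18, Tex2, Adgrl1 and Pgm3 most like Cma1 (0.99 to 1.00). Without library 3 the order was another, with Fam102a (0.98), Tmem67, Cd53, Sdc4 and Itgb1 for Cpa3 and Gfi1 (0.99), Col15a1, Ezr, Extl1 and Slc35c2 for Cma1. Col15a1 was the 1 gene on both BMMC lists for Cma1. Among the members themselves and without library 3, Cma1 and Tpsab1 had r = 0.92 and Tpsb2 and Tpsab1 0.83, while Cma1 and Mcpt1 had -0.68. These values come from 9 to 16 libraries that share a run within each cell type and were picked from 11470 genes (progenitors), 11897 genes (BMMCs) or 11835 genes (BMMCs without library 3), and they are given as a description.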

How the data were processed

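Counts and normalized RPKM of 26 bulk RNA-seq libraries were used, and samples were grouped by the genotype and cell type in their labels. Per the labels and the methods of the study, the authors made stranded total RNA libraries, sequenced single reads of 50 bases, aligned them to GRCm38 with GSNAP in the HTSeqGenie pipeline and counted uniquely aligned reads within exons. Whether strand was used in counting is not given in the sources used here. The deposited raw counts were tested as they stand. The authors divided the deposited RPKM values by a size factor, and these were used as levels. Of 52636 genes, 52403 had a symbol.

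Each comparison was fitted on the whole table with edgeR 4.0.16 (TMM, filterByExpr, robust quasi-likelihood test) in R 4.3.3, with p-values adjusted by Benjamini-Hochberg over all genes tested. Fold changes against a group at 0 were taken against 3 counts per library. Alternatives were limma 3.58.1 voom, the authors' method, DESeq2 1.42.0, RLE factors, no filter, all 26 libraries in one fit, the replicate number as a block, and each library left out. Single members were also tested by exact two-sided permutation of normalized RPKM. The fits were tested on simulated counts. No 2 libraries of a group were alike within sampling noise (lowest chi-square per degree of freedom 8.95 over 44 pairs). Intervals and floors cover counting error only. The members, the gene and marker lists and the choice to set library 3 apart were made with earlier results of these data known. All 10 members and Prss57 are named; of each gene list, every called gene if at most 6, else the 4 with the largest change, and the 2 with the highest mean level, are named, and Ctsc, Ndst2 and the list genes given for library 3 were chosen after their values were seen.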

Additional observations from a re-analysis of the deposited data

Results flagged for a closer look

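In each group of 4 or 5 libraries, a member was noted where its highest or lowest library lay far from the rest (Dixon's test at 95%), which chance gives in about 1 of 20 groups. Of 45 groups of values tested, 7 were noted. Prss57-/- BMMC library 3 gave 5 of them, for Cma1 (14490 normalized RPKM), Cpa3 (29822), Tpsg1 (1260), Gzmb (773) and Mcpt4 (738), all high. Its low value of Tpsab1 was not noted by this test, since the other 4 Prss57-/- libraries ranged from 513 to 1178. Mcpt1 in wild-type GMP library 3, at 0.134 normalized RPKM, rests on 7 reads where the other 3 wild-type GMP libraries had 0. Tpsb2 in Prss57-/- CMP library 2, at 0.165 normalized RPKM, rests on 5 reads where the other 3 had 0. With the other 3 all at 0, the test notes a group whatever the height of its remaining library. Both of these flags were therefore bound to come, and the 7 noted cannot be set against 1 of 20.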

How the results depend on the processing

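Outside the fits that left out a library, all 222 refits of a member's log2 fold change kept its direction and call. DESeq2 raised the genes called between genotypes to 2 in GMPs (Prss57 and Igkv5-43) and 3 in CMPs (Prss57, Xkrx and Palm), and those called in Prss57-/- GMPs against CMPs from 1259 to 2156; all 26 libraries in one fit raised the last to 2307. With one library left out at a time, it ranged from 785 (without Prss57-/- GMP library 3) to 2266 (without Prss57-/- CMP library 1), and the GMP genotype count from 1 to 2 (Palm, without wild-type GMP library 1). Of 326 such refits of log2 fold changes 310 kept direction and call, 11 turned sign and 5 lost the call of Tpsb2; the cause was not tested. Over these refits the genotype log2 fold change in BMMCs ranged from -0.28 to 0.98 for Cma1, -0.37 to 1.16 for Mcpt4, -0.40 to 0.082 for Mcpt8, -0.13 to 0.12 for Tpsb2, -0.56 to 0.080 for Tpsab1, -0.23 to 0.23 for Tpsg1 and -0.29 to 0.27 for Cpa3, and in GMPs from -0.0033 to 0.24 for Cpa3. The difference of mean normalized RPKM, Prss57-/- minus wild-type, ranged in BMMCs from -493 to 2738 for Cma1, -25.8 to 142 for Mcpt4, -44.1 to 11.6 for Mcpt8, -1652 to 1572 for Tpsb2, -245 to 46.3 for Tpsab1, -89.1 to 109 for Tpsg1 and -2364 to 2515 for Cpa3, and in GMPs from -0.0579 to 0.0425 for Mcpt4 and -1.60 to 45.3 for Cpa3. In GMPs the unadjusted exact permutation p of Tpsb2 was 0.114 with all libraries. With one library left out at a time it ranged from 0.0286, without Prss57-/- library 3, to 0.2. Scaling by library size in place of the size factors moved the wild-type BMMC level of Tpsg1 from 621 to 524 and no other level by more than its SD. In none of the comparisons did every same-numbered pair deviate together with r over 0.1 (r from -0.15 to 0.17 between genotypes in BMMCs, and from 0.021 to 0.45 from CMPs to GMPs in Prss57-/- cells). The mean r of same-numbered pairs was 0.15 from CMPs to GMPs in Prss57-/- cells, 0.11 in wild-type cells and 0.12 between genotypes in CMPs. Pairs of other numbers had means of -0.049, -0.038 and -0.040. Between genotypes the means were -0.032 against 0.012 in BMMCs and -0.015 against 0.0072 in GMPs. What the number stands for is not given, and the main fits did not use it. With the replicate block 0, 1 and 1 genes were called between genotypes in BMMCs, GMPs and CMPs, 2000 and 1311 from CMPs to GMPs in wild-type and Prss57-/- cells, and 7391 between wild-type BMMCs and GMPs, against 1918, 1259 and 7630 in the last 3 without it.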
